A study of Mus musculus with 75 samples.

Results

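Plin4, Plin2, Plin5, Angptl4, Pdk4, Acacb, Cpt1a, Slc2a4 and Ucp2 are 9 genes of lipid droplets, of the switch between glucose and fatty acid as fuel, and of the fasting response. They were followed through 26 RNA sequencing libraries of mouse brain in which DNMT3A, an enzyme that methylates DNA, was altered. The genes were listed by name and matched by their Ensembl identifiers, and all 9 were found among the 37310 gene identifiers of the cortex and nuclei files and the 55487 of the hippocampus files. The genes were chosen by their read counts in these same libraries, mutant against wild type, as earlier results had shown them, so their mutant and wild type values are given as a description, without p-values. Tests are given for wild type libraries set against each other and for other genes of the same pathways. The lists of those other genes were also chosen with earlier results of these data known.

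The study compared mice that lack one of the isoforms of DNMT3A, or carry a shortened form, with wild type mice, all C57BL/6 and at postnatal day 21. Cerebral cortex was read from 3 Dnmt3a1-/- libraries, which lack the long isoform, from 2 Dnmt3a2-/- libraries, which lack the short isoform, and from 3 libraries of the allele labelled Dnmt3a1_delta_N, named for loss of the N-terminal part of the long isoform. The 8 wild type cortex libraries carry 3 kinds of number in their titles. The 3 with plain numbers were set against Dnmt3a1-/-, the 2 marked r against Dnmt3a2-/- and the 3 marked n against Dnmt3a1_delta_N, a tie that rests on the titles alone. Hippocampus came as 3 Dnmt3a1-/- and 3 wild type libraries. Neuron nuclei, freed from cortex by douncing and sorted for the neuronal protein NeuN, came as 2 libraries labelled Dnmt3a1-/- and 2 wild type libraries. The labels name no Cre driver or restriction to a cell type for any allele, and they do not say which animal gave which library.

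Perilipins coat the lipid droplets in which cells store triglyceride, and they control the access of lipases to it. In fasting, fatty acids released from stores activate the nuclear receptor PPAR alpha, which induces ANGPTL4, PDK4, CPT1A and the enzymes of ketone body synthesis, so that glucose is spared. In brain, fatty acid oxidation and ketone body synthesis are carried out mainly by astrocytes, while neurons and other cells take up and burn ketone bodies, above all in the suckling period.

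Gene counts per library ran from 8677149 to 39049155, and the values below are CPM, in which each count is scaled by the gene total of its library. The count of Dnmt3a covers all isoforms. It was 73.2, 80.7 and 74.0 CPM in Dnmt3a1-/- cortex against 152, 165 and 146 CPM in wild type cortex, and 71.5, 76.1 and 72.3 CPM in Dnmt3a1-/- hippocampus against 162, 149 and 134 CPM in wild type hippocampus. In nuclei Dnmt3a was at 382 and 369 CPM in the libraries labelled Dnmt3a1-/-, against 405 and 399 CPM in wild type, which differed by -0.10 ± 0.15 on the log2 scale (SE, edgeR adjusted p = 0.89). The label of the mutant nuclei is thus not borne out by this count, and they are called nuclei labelled Dnmt3a1-/- below. Dnmt3a averaged 138 ± 8.58 CPM in Dnmt3a2-/- cortex (SD, n = 2) and 137 ± 2.33 CPM in Dnmt3a1_delta_N cortex (SD, n = 3), against 149 ± 5.46 CPM (SD, n = 2) and 157 ± 9.12 CPM (SD, n = 3) in their wild type series; a count of the whole gene does not check these 2 labels. The share of reads on lines that name no gene was higher in every Dnmt3a1-/- library than in its wild type libraries, at 28.9% to 30.2% in Dnmt3a1-/- cortex against 27.3% to 28.3% in wild type cortex, and at 24.3% to 27.2% in Dnmt3a1-/- hippocampus against 22.7% to 23.7% in wild type hippocampus; its part in the results was not tested. Between wild type cortex series many genes differed: 33.3% of genes tested between r and plain, 20.1% between n and plain and 27.3% between r and n.

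DNMT3A acts on CpG sites, so the promoters of Plin4, Plin5, Plin2 and Acacb are shown with their CpG in capitals: Plin4 and Acacb were much higher in Dnmt3a1-/- cortex, Plin2 was not, and Plin5 is the neighbour of Plin4. They are RefSeq windows of build GRCm38.p6, 250 bases before to 50 after the start, read 5′ to 3′ along the gene. The Plin4 window is chr17:56109733-56110032 on the minus strand, and the Plin5 window is chr17:56117499-56117798 on the same strand, so the starts shown for these perilipins lie 7.77 kb apart; a further listed start of Plin5 lies 7.52 kb from that of Plin4. The Plin2 window is chr4:86670010-86670309 on the minus strand, and the Acacb window is chr5:114165268-114165567 on the plus strand.
Plin4: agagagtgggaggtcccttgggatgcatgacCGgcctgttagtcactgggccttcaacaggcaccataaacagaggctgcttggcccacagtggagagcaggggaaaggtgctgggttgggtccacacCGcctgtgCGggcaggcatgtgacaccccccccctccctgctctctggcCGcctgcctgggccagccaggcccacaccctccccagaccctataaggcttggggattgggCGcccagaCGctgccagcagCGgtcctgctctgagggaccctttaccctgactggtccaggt
Plin5: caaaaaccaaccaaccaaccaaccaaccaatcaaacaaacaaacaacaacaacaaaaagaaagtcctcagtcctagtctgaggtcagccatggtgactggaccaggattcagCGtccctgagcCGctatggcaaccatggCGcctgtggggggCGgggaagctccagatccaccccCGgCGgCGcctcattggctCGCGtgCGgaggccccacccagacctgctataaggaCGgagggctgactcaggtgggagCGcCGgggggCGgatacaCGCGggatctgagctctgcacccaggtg
Plin2: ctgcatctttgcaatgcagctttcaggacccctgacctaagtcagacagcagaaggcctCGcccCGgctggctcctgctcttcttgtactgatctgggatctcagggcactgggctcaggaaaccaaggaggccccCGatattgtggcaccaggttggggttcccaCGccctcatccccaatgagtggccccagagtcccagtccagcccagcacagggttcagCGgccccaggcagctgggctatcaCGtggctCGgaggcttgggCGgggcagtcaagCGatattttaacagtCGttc
Acacb: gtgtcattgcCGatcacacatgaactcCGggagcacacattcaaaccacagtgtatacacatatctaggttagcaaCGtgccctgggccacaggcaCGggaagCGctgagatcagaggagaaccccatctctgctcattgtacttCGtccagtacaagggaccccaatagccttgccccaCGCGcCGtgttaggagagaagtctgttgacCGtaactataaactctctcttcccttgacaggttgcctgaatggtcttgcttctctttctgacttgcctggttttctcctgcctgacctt
The Plin4 window holds 7 CpG, which is the median of the 32851 promoters in the table (quartiles 3 and 20). The Plin5 window holds 16 CpG, and the Plin2 and Acacb windows hold 10 each. Of the other members, the Pdk4 window holds 12, the Ucp2 window 21 and the Cpt1a window 22. Angptl4 and Slc2a4 are named only.

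Short motifs were looked for on both strands of these windows. The nuclear receptor half-site AGGTCA was found in the windows of Plin2, Acacb, Plin5 and Cpt1a, and it occurs in 16.3% of all promoters in the table. The full PPAR element, which is AGGTCA, any 1 base and AGGTCA again, was found in none of the 7 members with a window and in 0.0396% of all promoters. The E-box CACGTG was found in the Plin2 window and in 7.15% of all. The glucocorticoid receptor half-site AGAACA (19.0% of all), the FOXO core GTAAACA (3.65%) and the cyclic AMP element TGACGTCA (1.79%) were found in none of the members. These are matches of letters only.

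Among the coat proteins of lipid droplets, Plin4 (ENSMUSG00000002831) was far higher in Dnmt3a1-/- tissue. It stood at 4.0, 8.92 and 6.71 CPM in Dnmt3a1-/- cortex (47, 234 and 177 counts), against 0.409, 0.559 and 1.35 CPM in wild type cortex (10, 15 and 24 counts). In hippocampus it stood at 4.58, 15.0 and 8.05 CPM in Dnmt3a1-/- (52, 219 and 187 counts), against 0.691, 1.57 and 1.98 CPM in wild type (6, 28 and 29 counts). In both tissues every mutant library lay above every wild type library. The log2 difference was 3.23 ± 0.43 in cortex, a 9.36-fold difference, and 2.6 ± 0.51 in hippocampus, a 6.07-fold difference (SE, n = 3 against 3).

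In the other mutants the Plin4 values were smaller and less even. Dnmt3a2-/- cortex had 1.96 and 1.05 CPM, against 0.688 and 0.403 CPM in its wild type series, a log2 difference of 1.5 ± 0.4 with no overlap. Dnmt3a1_delta_N cortex had 2.92, 0.803 and 0.548 CPM, against 0.786, 0.562 and 0.695 CPM in its wild type series. Here the first mutant library stood alone: the log2 difference was 1.03 ± 0.6 with it and 0.02 without it. Nuclei held little Plin4, with 0.41 and 0.396 CPM in nuclei labelled Dnmt3a1-/- and 0.0852 and 0.367 CPM in wild type nuclei.

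Plin2 (ENSMUSG00000028494), the coat protein found on droplets of most cell types, did not show the pattern of Plin4. Dnmt3a1-/- cortex had 8.0, 7.96 and 8.04 CPM, against 8.59, 7.53 and 9.11 CPM in wild type cortex. Dnmt3a1-/- hippocampus had 6.95, 8.14 and 8.43 CPM, against 10.3, 8.97 and 6.62 CPM in wild type hippocampus. The groups overlapped in both tissues, with log2 differences of -0.07 ± 0.12 in cortex and -0.12 ± 0.17 in hippocampus. They also overlapped in the other cortex mutants: 6.81 and 8.49 CPM in Dnmt3a2-/- against 6.3 and 7.07 CPM in wild type, and 8.13, 11.7 and 10 CPM in Dnmt3a1_delta_N against 9.71, 10.2 and 9.44 CPM in wild type. In nuclei Plin2 was at 0.282 and 0.158 CPM in those labelled Dnmt3a1-/-, against 0.739 and 0.339 CPM in wild type, a log2 difference of -1.21 ± 0.56 from 15 and 38 counts in all.

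Plin5 (ENSMUSG00000011305), which tethers droplets to mitochondria in oxidative tissue, was barely detected, with 3 to 16 counts in any library. It averaged 0.398 ± 0.0974 CPM in Dnmt3a1-/- cortex and 0.366 ± 0.0292 CPM in wild type cortex (SD, n = 3 each), and 0.463 ± 0.318 CPM in Dnmt3a1-/- hippocampus and 0.413 ± 0.177 CPM in wild type hippocampus (SD, n = 3 each). In both tissues the groups overlapped. At this depth a difference in Plin5 was not detectable, and of the mutant comparisons its counts passed the filter on low counts only in that of Dnmt3a1_delta_N, where the log2 difference was 0.39 ± 0.35.

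**Figure D1:**
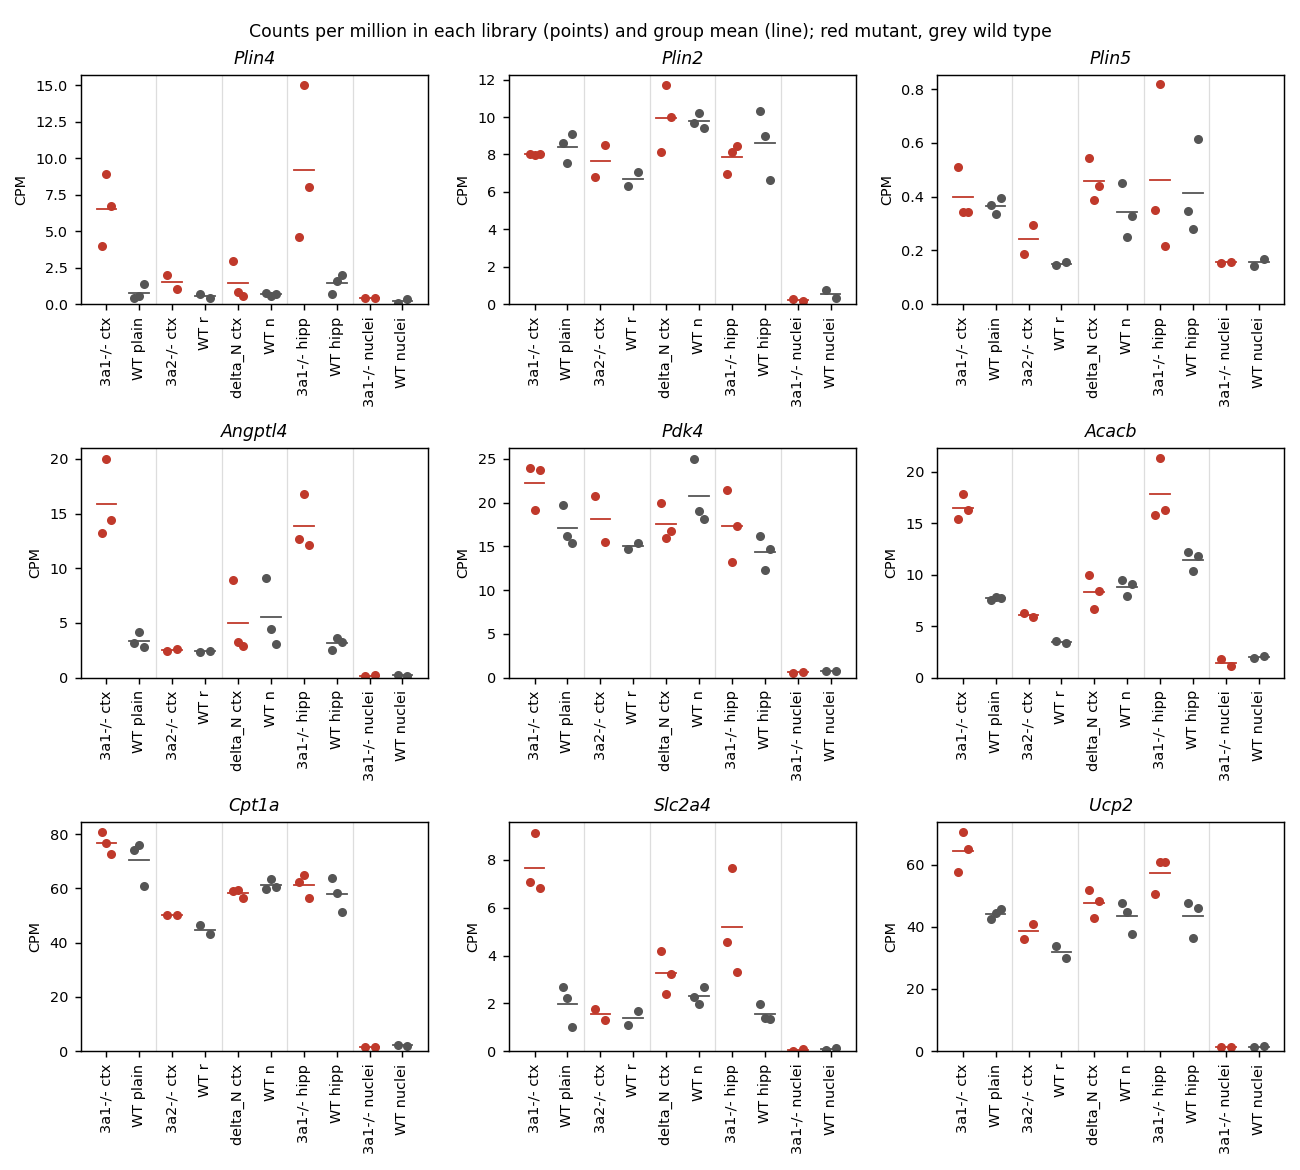
Level in CPM of the 9 genes in each library, 1 panel per gene, with a point for each library and a line for the group mean; mutant groups are red and stand left of their wild type group in grey. Plin4, Angptl4, Slc2a4 and Acacb stood higher in every Dnmt3a1-/- cortex and hippocampus library than in any wild type library of the tissue, and all 9 genes were low in nuclei.

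Angptl4 (ENSMUSG00000002289), whose secreted product blocks lipoprotein lipase and is induced in fasting, had the second largest difference. It had 13.2, 20 and 14.4 CPM in Dnmt3a1-/- cortex, against 3.15, 4.17 and 2.81 CPM in wild type cortex. Dnmt3a1-/- hippocampus gave 12.7, 16.8 and 12.1 CPM, against 2.54, 3.59 and 3.28 CPM in wild type hippocampus. The groups did not overlap in either tissue. The log2 differences, 2.22 ± 0.18 in cortex and 2.08 ± 0.18 in hippocampus (4.67-fold and 4.24-fold), had about the same size in both.

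No such difference in Angptl4 was seen in the other 2 mutants of cortex. Dnmt3a2-/- cortex had 2.43 and 2.6 CPM, against 2.35 and 2.45 CPM in wild type, a log2 difference of 0.06 ± 0.21. Dnmt3a1_delta_N cortex had 8.91, 3.21 and 2.92 CPM, against 9.12, 4.44 and 3.07 CPM in wild type. The first library of each of these groups was about as high as the other, and the log2 difference was -0.17 ± 0.6. In nuclei Angptl4 did not pass the filter on low counts, at 0.128 and 0.198 CPM in those labelled Dnmt3a1-/- and 0.227 and 0.169 CPM in wild type.

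Slc2a4 (ENSMUSG00000018566) codes for GLUT4, the insulin-responsive glucose transporter of muscle and fat, which some neurons also carry. It had 7.07, 9.15 and 6.83 CPM in Dnmt3a1-/- cortex, against 2.7, 2.24 and 1.01 CPM in wild type cortex. Dnmt3a1-/- hippocampus gave 4.58, 7.66 and 3.31 CPM, against 1.96, 1.4 and 1.36 CPM in wild type hippocampus. There was no overlap in either tissue, with log2 differences of 1.91 ± 0.24 (3.76-fold) in cortex and 1.72 ± 0.32 (3.29-fold) in hippocampus.

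In the other mutants the Slc2a4 groups overlapped. Dnmt3a2-/- cortex had 1.77 and 1.3 CPM, against 1.09 and 1.67 CPM in wild type. Dnmt3a1_delta_N cortex had 4.2, 2.41 and 3.21 CPM, against 2.27, 1.97 and 2.67 CPM in wild type, a log2 difference of 0.52 ± 0.22. In nuclei the counts were 0 and 2 in those labelled Dnmt3a1-/- and 2 and 5 in wild type, too few for a comparison.

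Acacb (ENSMUSG00000042010) codes for ACC2, the acetyl-CoA carboxylase at the mitochondrial surface whose product, malonyl-CoA, inhibits CPT1. It had 15.4, 17.8 and 16.3 CPM in Dnmt3a1-/- cortex, against 7.53, 7.79 and 7.76 CPM in wild type cortex. Dnmt3a1-/- hippocampus gave 15.8, 21.3 and 16.3 CPM, against 12.2, 10.4 and 11.8 CPM in wild type hippocampus. The log2 differences were 1.11 ± 0.10 (2.15-fold) in cortex and 0.63 ± 0.14 (1.54-fold) in hippocampus, with no overlap in either.

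Acacb was also higher in both Dnmt3a2-/- cortex libraries, at 6.32 and 5.84 CPM, than in their wild type series, at 3.59 and 3.32 CPM, a log2 difference of 0.81 ± 0.17. These mutant values nevertheless lay below those of the other wild type cortex series. Set against all 8 wild type libraries of cortex, Dnmt3a2-/- had a log2 difference of -0.23. Dnmt3a1_delta_N cortex had 10, 6.63 and 8.43 CPM, against 9.46, 7.97 and 9.07 CPM in wild type, which overlapped. Nuclei had 1.79 and 1.11 CPM in those labelled Dnmt3a1-/- and 1.88 and 2.09 CPM in wild type, where both mutant libraries were the lower (log2 difference -0.42 ± 0.3).

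Cpt1a (ENSMUSG00000024900), the carnitine palmitoyltransferase that admits long-chain fatty acids to mitochondria, differed little. Dnmt3a1-/- cortex had 80.7, 76.8 and 72.6 CPM, against 74.0, 76.1 and 60.9 CPM in wild type cortex. Dnmt3a1-/- hippocampus gave 62.5, 65.0 and 56.6 CPM, against 64.0, 58.3 and 51.2 CPM in wild type hippocampus. The groups overlapped in both tissues, with log2 differences of 0.12 ± 0.08 and 0.07 ± 0.1. Dnmt3a2-/- cortex had 50.3 and 50.3 CPM, against 46.6 and 43.1 CPM in wild type (0.16 ± 0.1), and with all 8 wild type libraries as controls the log2 difference was -0.29. Dnmt3a1_delta_N cortex, with 58.9, 59.3 and 56.6 CPM, lay just below its wild type series with 59.9, 63.4 and 60.6 CPM (log2 difference -0.06 ± 0.06).

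Pdk4 (ENSMUSG00000019577), a kinase that shuts off pyruvate dehydrogenase in fasting, differed by much less than Angptl4. Dnmt3a1-/- cortex had 24.0, 19.1 and 23.7 CPM, against 19.7, 16.2 and 15.4 CPM in wild type cortex, a log2 difference of 0.37 ± 0.11 with the lowest mutant library under the highest wild type library. Dnmt3a1-/- hippocampus had 21.4, 13.2 and 17.3 CPM, against 16.2, 12.3 and 14.7 CPM in wild type hippocampus, a log2 difference of 0.25 ± 0.16 with overlap. Dnmt3a2-/- cortex had 20.7 and 15.5 CPM, against 14.7 and 15.4 CPM in wild type. In Dnmt3a1_delta_N cortex the sign was the other way, with 20, 16 and 16.7 CPM against 25, 19.0 and 18.1 CPM in wild type, a log2 difference of -0.23 ± 0.13 with overlap.

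Ucp2 (ENSMUSG00000033685), a carrier of the inner mitochondrial membrane linked to fatty acid use, was read at 57.6, 70.4 and 65.0 CPM in Dnmt3a1-/- cortex and at 42.5, 44.3 and 45.7 CPM in wild type cortex. Dnmt3a1-/- hippocampus gave 50.4, 60.8 and 60.8 CPM, against 47.7, 36.5 and 46.1 CPM in wild type hippocampus. Both tissues showed no overlap, with log2 differences of 0.54 ± 0.08 in cortex and 0.39 ± 0.12 in hippocampus. Dnmt3a2-/- cortex had 36.0 and 41.0 CPM, against 33.9 and 30.0 CPM in wild type (0.26 ± 0.12), and Dnmt3a1_delta_N cortex had 52.0, 42.8 and 48.2 CPM, against 47.6, 44.8 and 37.6 CPM in wild type (0.15 ± 0.1). In nuclei Ucp2 was at 1.46 CPM in both libraries labelled Dnmt3a1-/-, against 1.28 and 1.53 CPM in wild type.

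Counted over the 9 genes, Dnmt3a1-/- cortex stood out, as the choice of the genes made likely. Of the 8 members that passed the filter, 6 were called higher at an adjusted p under 0.05, namely Plin4, Angptl4, Pdk4, Acacb, Slc2a4 and Ucp2, where 17.9% of all genes tested were called and 8.95% called higher. The groups did not overlap for 5 of them, all but Pdk4, where 18.4% of genes tested lay higher without overlap. The median log2 difference of the members was 0.83, beside 0.006 over all genes. In hippocampus 4 of 8 were called higher, Plin4, Angptl4, Acacb and Slc2a4, where 2.52% of all genes were called and 1.69% called higher. These 4 and Ucp2 lay higher there without overlap, as did 13.9% of genes tested. The median there was 0.51, beside 0.005 over all genes. Leaving out 1 library moved the 396 genes called in hippocampus to between 86 and 783. Without wild type library 2 or 3 the count of members was 1, and without Dnmt3a1-/- library 2 or 3 it was 2. These counts use the comparisons that chose the genes and support nothing.

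In Dnmt3a2-/- cortex none of 8 members was called, where 0.00628% of all genes (1 of 15929) were called. All 8 differences were above 0 with a median of 0.22. Plin4, Pdk4, Acacb, Cpt1a and Ucp2, and Plin5 as well, which did not pass the filter, lay higher in both mutant libraries than in both wild type libraries, and 14.8% of all genes did so. In Dnmt3a1_delta_N cortex none of 9 members was called, where edgeR called 0.0% of all genes (the p before adjustment was under 0.05 for 1267, and DESeq2 called 31). With the replicate number as a block, in a comparison whose same-numbered libraries deviated together, 0.749% of all genes were called, and still no member. The differences were positive for 5 and negative for 4 members, with a median of 0.04, and Cpt1a alone did not overlap, where 12.8% of all genes did not. In nuclei none of 6 members was called, where 0.246% of all genes were called; the median was -0.34, and Plin2, Pdk4, Acacb and Cpt1a lay lower in both mutant libraries, as did 19.6% of all genes, and Plin4 lay higher in both, as did 18.9%.

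**Figure D2:**
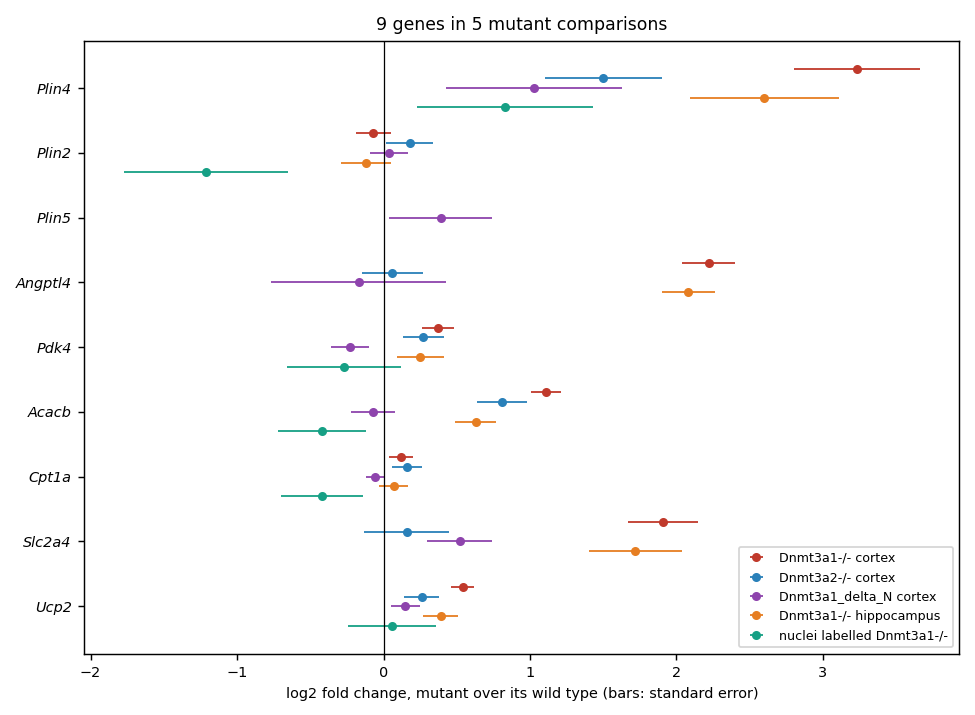
Log2 fold changes of the members, mutant over its own wild type, in the 5 mutant comparisons; points are estimates and bars are standard errors, and members that did not pass the filter have no point. Plin4, Angptl4, Slc2a4 and Acacb lie to the right in Dnmt3a1-/- cortex (3.23, 2.22, 1.91 and 1.11) and hippocampus (2.6, 2.08, 1.72 and 0.63), while Plin2 and Cpt1a lie near 0 there.

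The difference between the Dnmt3a1-/- effects in hippocampus and in cortex was estimated in 1 fit of the 4 groups. For the 8 members with a value it ran from -0.61 ± 0.83 for Plin4 to -0.05 ± 0.13 for Cpt1a and -0.05 ± 0.21 for Plin2, all of them below 0. For Acacb it was -0.48 ± 0.17. Set against the effect of Dnmt3a1_delta_N in the same way, the effect of Dnmt3a1-/- in cortex was larger by 2.39 ± 0.73 for Angptl4, 2.18 ± 0.92 for Plin4, 1.4 ± 0.37 for Slc2a4 and 1.17 ± 0.19 for Acacb on the log2 scale. Both differences are built from the mutant and wild type values that chose the genes, so they too are a description, with no test of the members.

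In bulk tissue, more cells of a type and more RNA per cell cannot be told apart, so markers of other cells were read beside these genes. The summed level of 10 choroid plexus markers was 2030, 831 and 1220 CPM in Dnmt3a1-/- cortex and 531, 760 and 125 CPM in wild type cortex. In hippocampus it was 557, 1870 and 62.4 CPM in Dnmt3a1-/- and 79.9, 110 and 93.1 CPM in wild type. None of the 10 markers was called in cortex (median log2 difference 0.92), and none of the 9 tested was called in hippocampus (1.92). The third Dnmt3a1-/- hippocampus library had the lowest sum of the 6, with 8.05 CPM of Plin4, 12.1 CPM of Angptl4 and 3.31 CPM of Slc2a4. These Angptl4 and Slc2a4 values were the lowest of its group. The second, with the highest sum, had the highest values, 15.0 CPM of Plin4, 16.8 CPM of Angptl4 and 7.66 CPM of Slc2a4. In Dnmt3a1-/- cortex the first library had the highest sum and the lowest Plin4 and Angptl4 of its group, 4.0 and 13.2 CPM. In Dnmt3a2-/- cortex the sums were 18.7 and 1620 CPM.

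**Figure D3:**
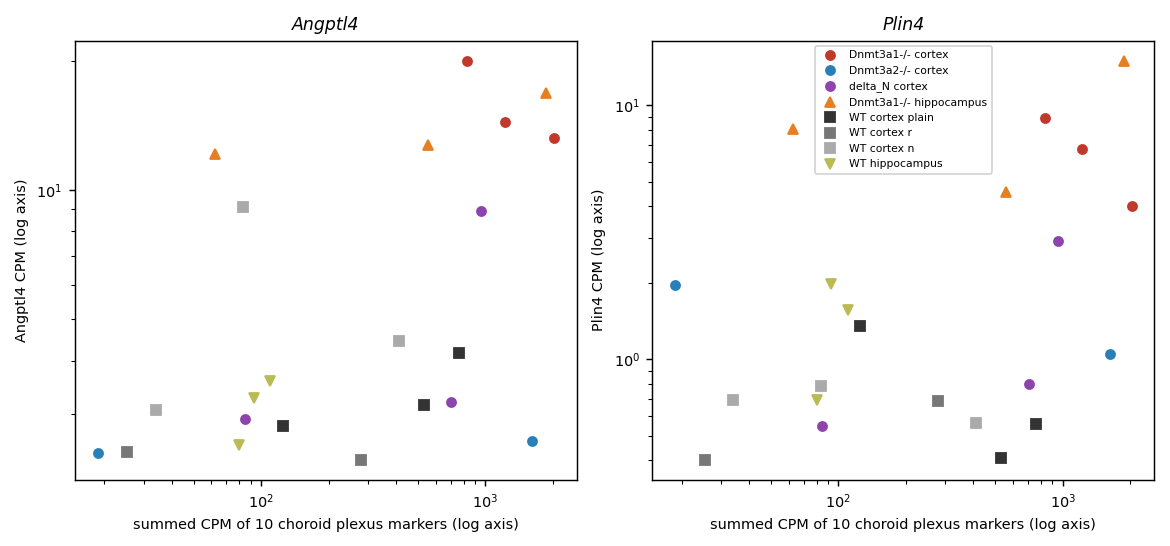
Level of a member in each tissue library (vertical, CPM, log axis) against the summed level of 10 choroid plexus markers in the same library (horizontal, CPM, log axis), with a colour and marker for each group. Sums in Dnmt3a1-/- libraries ran from 831 to 2030 CPM in cortex and from 62.4 to 1870 CPM in hippocampus, against 125 to 760 CPM in the wild type cortex series with plain numbers and 79.9 to 110 CPM in wild type hippocampus; 1 Dnmt3a1-/- library has a low sum.

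The tissues in which Plin4, Angptl4 and Slc2a4 are best known are fat and muscle, so their markers were read as well. Of 10 adipocyte markers, Lep and Cfd were at 0 in all 22 tissue libraries, and Adipoq reached at most 0.112 CPM and was at 0 in 15 of them. The sum of the list was 15.0 to 17.6 CPM in Dnmt3a1-/- cortex and 14.1 to 14.7 CPM in wild type cortex, and 12.2 to 13.9 CPM in Dnmt3a1-/- hippocampus and 9.31 to 10.8 CPM in wild type hippocampus. Most of it came from Lipe and Pparg, which brain cells also express. Skeletal muscle markers summed to 9.71 to 11.2 CPM in Dnmt3a1-/- cortex and 7.14 to 9.5 CPM in wild type cortex. Blood markers were lower, at 338 to 522 CPM in Dnmt3a1-/- cortex and 523 to 831 CPM in wild type cortex, and mural cell markers stood at 594 to 645 CPM in Dnmt3a1-/- cortex and 689 to 976 CPM in wild type cortex. Astrocyte markers summed to 15900 to 16600 CPM in Dnmt3a1-/- cortex and 14700 to 16000 CPM in wild type cortex. In hippocampus mural cell markers stood at 478 to 541 CPM in Dnmt3a1-/- and 571 to 660 CPM in wild type. Of 10 neuron markers 4 fell in Dnmt3a1-/- cortex (median log2 difference -0.19), with sums of 7840 to 8430 CPM in Dnmt3a1-/- cortex and 8430 to 8860 CPM in wild type cortex. Of 10 oligodendrocyte markers 2 rose there (median 0.06), with sums of 19600 to 23500 CPM in Dnmt3a1-/- cortex and 17000 to 20200 CPM in wild type cortex. The part of RNA from choroid plexus, blood, mural cells, astrocytes, neurons and oligodendrocytes in the differences of the members was not tested.

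Wild type libraries alone show where and how evenly the genes are expressed. The choice of the genes did not name these comparisons, but it used the same wild type values as the reference of each mutant. The p-values between wild type groups are thus not fully independent of the choice. In wild type nuclei all 9 members were lower than in the 8 wild type cortex libraries, where 79.4% of all genes tested were called and 39.7% called lower. Ucp2 averaged 1.4 ± 0.174 CPM in nuclei (SD, n = 2), against 30.0 to 47.6 CPM in the cortex libraries, a log2 difference of -5.12 ± 0.23 (SE, edgeR adjusted p = 2.8e-10). Cpt1a had 2.15 ± 0.209 CPM in nuclei (SD, n = 2), against 43.1 to 76.1 CPM in cortex, a log2 difference of -5.07 ± 0.28 (edgeR adjusted p = 3e-09). Pdk4 differed by -4.86 ± 0.25 (edgeR adjusted p = 8.7e-10), Angptl4 by -4.55 ± 0.68 (edgeR adjusted p = 5.4e-05), Slc2a4 by -4.5 ± 0.54 (edgeR adjusted p = 3.6e-06) and Plin2 by -4.22 ± 0.3 (edgeR adjusted p = 1.6e-08).

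The other 3 members kept more of their level in nuclei. Acacb differed by -2.09 ± 0.41 (edgeR adjusted p = 0.00054), Plin4 by -1.81 ± 0.57 (edgeR adjusted p = 0.0097) and Plin5, at a few counts, by -1.19 ± 0.51 (edgeR adjusted p = 0.047). The call of Plin5 was lost in 8 of the 10 fits that left out 1 library, and that of Plin4 in 1. The median log2 difference of the members was -4.5, beside -0.026 over all genes, and 8 of 9 lay lower without overlap, as did 32.5% of all genes. Markers of several other cell types fell farther in nuclei: the median was -5.32 for 10 astrocyte markers, all 10 called lower, -5.7 for oligodendrocytes, -6.75 for endothelium and -6.85 for microglia. Those of choroid plexus and ependyma fell less, with medians of -2.37 and -2.18. For 10 neuron markers the median was -0.7, with 6 called lower. The sort for neurons, the loss of cytoplasmic RNA and the preparation cannot be told apart in this comparison.

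Wild type hippocampus was set against the 8 wild type cortex libraries taken as 1 group, although their 3 series differed from each other. Plin4 rose in hippocampus to 1.41 ± 0.658 CPM (SD, n = 3), against 0.403 to 1.35 CPM in the 8 cortex libraries, a log2 difference of 1.09 ± 0.37 (SE, edgeR adjusted p = 0.028). It was the 1 of 9 members called, where 42.0% of all genes were called and 21.5% called higher. Acacb was higher in all 3 hippocampus libraries than in any of the 8 cortex libraries, at 11.5 ± 0.968 CPM (SD, n = 3) against 3.32 to 9.46 CPM, without passing the test (log2 difference 0.67 ± 0.28, edgeR adjusted p = 0.076); 20.1% of all genes lay higher without overlap. Without wild type hippocampus library 2 or 3, or without wild type cortex library n2, no member was called. With the plain series alone as cortex, 3 members were called. The files of the 2 tissues use different annotations, and tissue and preparation cannot be told apart.

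Between the wild type cortex series the members were not constant. In the r series 3 of 8 members fell below the plain series, where 33.3% of genes tested were called and 16% called lower. Acacb stood at 3.59 and 3.32 CPM in the r series, against 7.53, 7.79 and 7.76 CPM in the plain series, a log2 difference of -1.17 ± 0.14 (SE, edgeR adjusted p = 2.7e-05). Cpt1a differed by -0.67 ± 0.09 (edgeR adjusted p = 0.00032) and Ucp2 by -0.48 ± 0.08 (edgeR adjusted p = 0.00053), and all 8 differences were below 0, with a median of -0.5.

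Set against the n series, 6 of 9 members fell in the r series, where 27.3% of all genes were called and 13.5% called lower. Acacb differed by -1.34 ± 0.14 (edgeR adjusted p = 5.7e-05), Slc2a4 by -0.71 ± 0.24 (edgeR adjusted p = 0.04), Plin2 by -0.54 ± 0.11 (edgeR adjusted p = 0.0038), Pdk4 by -0.45 ± 0.13 (edgeR adjusted p = 0.025), Cpt1a by -0.44 ± 0.07 (edgeR adjusted p = 0.00083) and Ucp2 by -0.43 ± 0.1 (edgeR adjusted p = 0.0085). All 9 differences were below 0, with a median of -0.54; without wild type library r1, or without r2, 3 were called. Slc2a4 was lost in 4 of the 5 fits that left out 1 library, Pdk4 in 2, and Plin2 and Ucp2 in 1 each. Between n and plain 1 of 8 members was called, Cpt1a, which was lower in the n series by a log2 difference of -0.24 ± 0.08 (edgeR adjusted p = 0.048), where 20.1% of all genes were called and 9.42% called lower. This call was lost in 5 of the 6 fits that left out 1 library, all but that without plain library 3, and with the replicate block (edgeR adjusted p = 0.077). These series share the genotype, strain and age of the labels. The differences in Acacb between the r series and the plain and n series are about as large as the 1.11 between Dnmt3a1-/- and its own wild type series. Between n and plain Acacb differed by 0.16 ± 0.11 (edgeR adjusted p = 0.31). Markers differed with them: relative to the plain series, the r series had 6 of 10 astrocyte markers lower (median -0.29), 8 of 10 microglia markers lower (-0.33), 4 of 7 blood markers lower (-1.79) and 7 of 10 neuron markers higher (0.29). Their part in these differences was not tested.

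**Figure D4:**
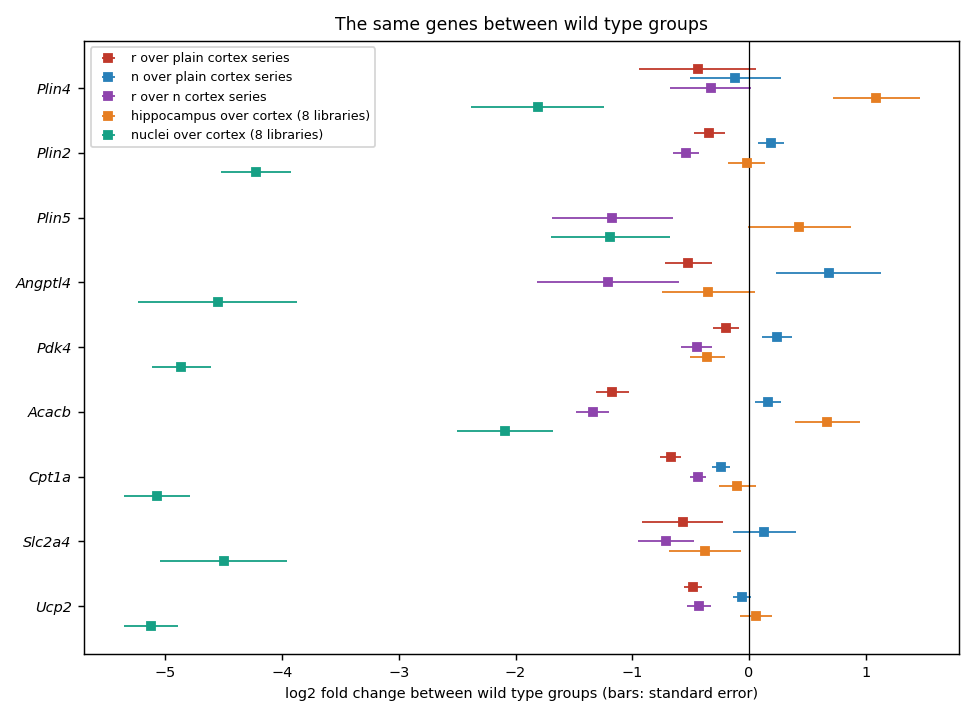
Log2 fold changes of the members between wild type groups, with standard errors as bars. Nuclei lie far to the left of cortex for Ucp2, Cpt1a, Pdk4, Angptl4, Slc2a4 and Plin2 (-5.12 to -4.22), and the r series of cortex lies left of the plain and n series for Acacb (-1.17 and -1.34).

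The other genes of these pathways were read from 11 lists with 145 genes. The lists were chosen with earlier results of these data known, so the shares called and the p-values are not independent support. In Dnmt3a1-/- cortex 126 of them were tested, and 23 rose and 15 fell, 30.2% in all, where 17.9% of all genes tested were called. The median log2 change over the lists was 0.04, beside 0.006 over all genes, so the lists as a whole did not shift one way. With the replicate number as a block, given because same-numbered libraries deviated together, 29 rose and 24 fell, where the block called 31.0% of all genes. Some calls named below did not hold in every one of the 6 fits that left out 1 library: Slc2a12 was lost in 5 of them, Acly, Cideb and Pdp1 in 4, Dlat, Fitm2 and Prkaa2 in 2, and Acaa2, Slc2a8, Slc2a13 and Slc25a14 in 1. In the paragraphs that follow, changes are log2 of Dnmt3a1-/- over wild type cortex with the SE and the edgeR adjusted p.

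Genes of the ketone body list moved in both directions. Of its 10 genes 4 rose and 3 fell. Slc16a1, which codes for the ketone and lactate carrier MCT1, rose by 0.88 ± 0.14 (edgeR adjusted p = 0.0055), with 297, 256 and 222 CPM in Dnmt3a1-/- cortex against 147, 161 and 111 CPM in wild type cortex. Other genes of ketone uptake and use fell. Oxct1, the enzyme that activates acetoacetate for burning, fell by 0.43 ± 0.08 on the log2 scale (edgeR adjusted p = 0.002), with 391, 337 and 362 CPM in Dnmt3a1-/- cortex against 535, 447 and 487 CPM in wild type cortex. Slc16a7, which codes for the neuronal carrier MCT2, fell by 0.67 ± 0.14 on the log2 scale (edgeR adjusted p = 0.0065).

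Of 11 tested lipid droplet genes other than the members, 2 rose and 2 fell. Plin3, the perilipin that also circulates in the cytosol, rose by 0.86 ± 0.09 (edgeR adjusted p = 7.3e-05), with 27.2, 26.5 and 24.3 CPM in Dnmt3a1-/- cortex against 14.2, 15.2 and 13.3 CPM in wild type cortex. Hsd17b11, a droplet-bound dehydrogenase, rose by 0.32 ± 0.07 (edgeR adjusted p = 0.0056). Fitm2, needed for droplet budding, fell by 0.34 ± 0.09 on the log2 scale (edgeR adjusted p = 0.015), and Cideb by 0.59 ± 0.19 (edgeR adjusted p = 0.046). Of 10 lipases and cofactors, 1 rose and 2 fell. Pnpla2, which codes for the triglyceride lipase ATGL, rose by 0.72 ± 0.11 (edgeR adjusted p = 0.0012), with 31.1, 42.0 and 35.4 CPM in Dnmt3a1-/- cortex against 20.2, 21.7 and 24.1 CPM in wild type cortex. Lpl, the lipoprotein lipase that ANGPTL4 inhibits, fell by 0.57 ± 0.1 on the log2 scale (edgeR adjusted p = 0.0018), with 18.9, 18.2 and 22.8 CPM in Dnmt3a1-/- cortex against 29.5, 30.0 and 29.5 CPM in wild type cortex.

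Genes of fatty acid burning moved little. Of 21 genes of mitochondrial oxidation 2 rose and none fell: Eci2 by 0.43 ± 0.07 (edgeR adjusted p = 0.0014) and Acaa2 by 0.35 ± 0.08 (edgeR adjusted p = 0.011). Cpt2, the partner of CPT1A on the inner membrane, had a log2 difference of 0.26 ± 0.11 (edgeR adjusted p = 0.11, and 0.041 with the replicate block). Of 13 peroxisomal genes and other PPAR targets 2 rose, among them the fatty acid transporter gene Slc27a1 by 0.48 ± 0.08 (edgeR adjusted p = 0.0014). Ppara itself had a log2 difference of 0.04 ± 0.13 (edgeR adjusted p = 0.88).

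Among 18 nuclear receptors and regulators of fasting, 4 rose and 2 fell. Klf15, a transcription factor induced by fasting and by glucocorticoids, rose by 0.89 ± 0.09 (edgeR adjusted p = 6.3e-05), with 38.9, 42.0 and 36.6 CPM in Dnmt3a1-/- cortex against 19.3, 21.9 and 21.9 CPM in wild type cortex. Lpin1, a phosphatidate phosphatase that also acts with PPAR alpha, rose by 0.54 ± 0.08 (edgeR adjusted p = 0.0006), and Rxra, the partner receptor of PPAR, by 0.45 ± 0.09 (edgeR adjusted p = 0.0046). Prkaa2, a catalytic subunit of AMP-activated kinase, fell by 0.33 ± 0.08 on the log2 scale (edgeR adjusted p = 0.015). Of 10 targets of FOXO type 3 rose: Txnip by 0.87 ± 0.13 (edgeR adjusted p = 0.0027, and 0.061 with the replicate block), Sesn3 by 0.52 ± 0.08 (edgeR adjusted p = 0.00096) and Sesn1 by 0.51 ± 0.08 (edgeR adjusted p = 0.00087).

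In glucose handling, Pdk2, the most widely expressed of the pyruvate dehydrogenase kinases, rose by 0.46 ± 0.07 (edgeR adjusted p = 0.0011), with 69.7, 71.2 and 61.1 CPM in Dnmt3a1-/- cortex against 47.6, 48.4 and 50.3 CPM in wild type cortex. It was the 1 of 13 genes of its list that rose, and Dlat and Pdp1 fell. Of 10 glucose transporters and hexokinases 3 rose and 1 fell. Slc2a1, which codes for the transporter GLUT1 of brain capillaries and glia, rose by 0.51 ± 0.11 (edgeR adjusted p = 0.0097), and Slc2a8 by 0.44 ± 0.1 (edgeR adjusted p = 0.012). Slc2a12 rose by 1.13 ± 0.28 (edgeR adjusted p = 0.034, and 0.12 with the replicate block); its highest library, at 18.3 CPM, was also that with the highest choroid plexus sum. Slc2a13, a myo-inositol transporter, fell by 0.55 ± 0.12 on the log2 scale (edgeR adjusted p = 0.01). Of 6 genes of malonyl-CoA metabolism, Acss2 fell by 0.48 ± 0.07 (edgeR adjusted p = 0.0011) and Acly by 0.26 ± 0.08 (edgeR adjusted p = 0.033). Of 4 relatives of the uncoupling proteins, Slc25a27 rose by 0.49 ± 0.09 (edgeR adjusted p = 0.0036) and Slc25a14 fell by 0.41 ± 0.1 (edgeR adjusted p = 0.011).

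**Figure D5:**
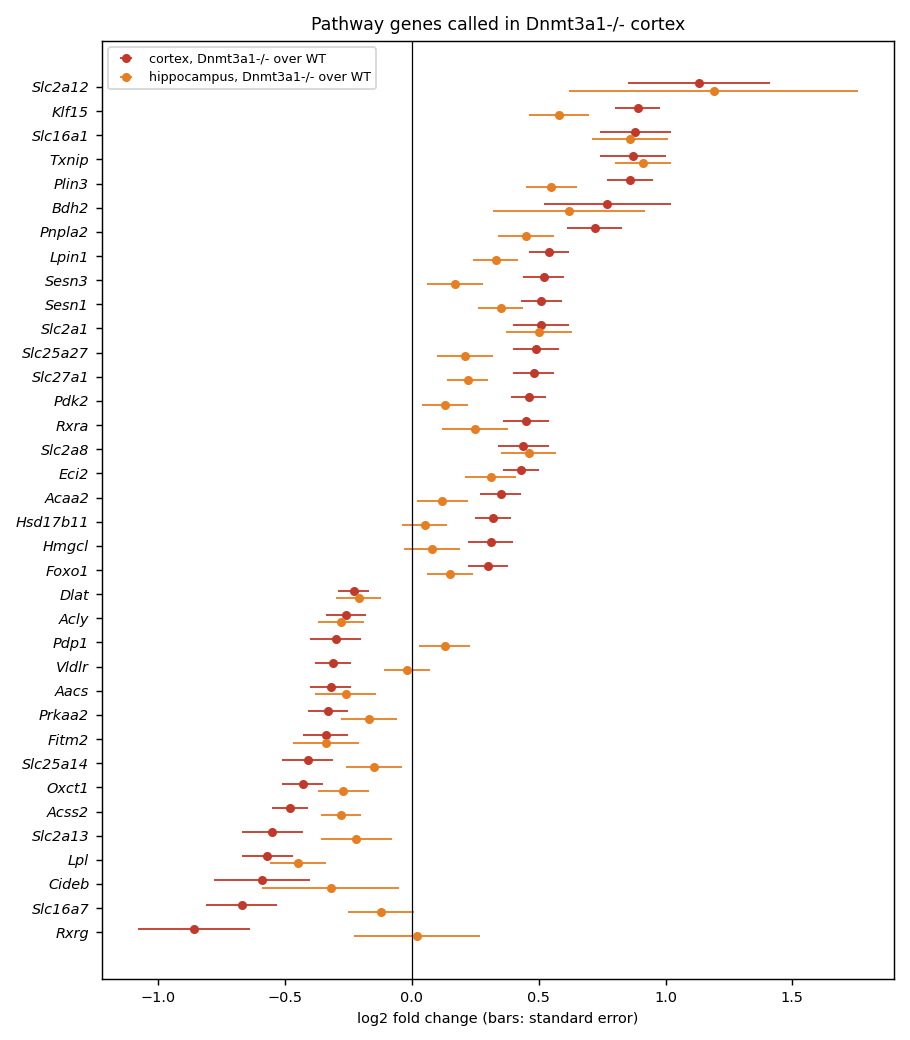
Log2 fold changes, with standard errors as bars, of pathway genes called in Dnmt3a1-/- cortex, in cortex and in hippocampus, Dnmt3a1-/- over wild type. Klf15 (0.89 and 0.58) lies to the right in cortex and hippocampus, Lpl lies to the left in both (-0.57 and -0.45), and many of the others lie nearer to 0 in hippocampus. Slc2a12 (1.13 and 1.19) also lies to the right, but in hippocampus its SE was 0.57 and it was not called (edgeR adjusted p = 0.35).

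In Dnmt3a1-/- hippocampus 126 pathway genes were tested, of which 5 rose and 1 fell, 4.76% where 2.52% of all genes were called. All 6 were also called in cortex, in the same direction. Txnip rose by 0.91 ± 0.11 (edgeR adjusted p = 0.0019), Slc16a1 by 0.86 ± 0.15 (edgeR adjusted p = 0.016), Klf15 by 0.58 ± 0.12 (edgeR adjusted p = 0.028) and Plin3 by 0.55 ± 0.1 (edgeR adjusted p = 0.016). Lpl fell by 0.45 ± 0.11 on the log2 scale (edgeR adjusted p = 0.041). Slc2a1 had a log2 difference of 0.5 ± 0.13 (edgeR adjusted p = 0.059), Pdk2 of 0.13 ± 0.09 (edgeR adjusted p = 0.47), Cpt2 of 0.04 ± 0.12 (edgeR adjusted p = 0.9) and Ppara of -0.3 ± 0.2 (edgeR adjusted p = 0.46). The count of 6 was 3 without wild type library 2, or without wild type library 3, and 2 without Dnmt3a1-/- library 2. Of the genes named, Lpl was lost in 4 of the 6 fits that left out 1 library, and Plin3, Slc16a1 and Klf15 in 3 each. In the test of the difference between the hippocampus and cortex effects edgeR called none of 127 pathway genes, where 0.0% of all genes were called. Of the 127, 11 had an unadjusted p under 0.05 and DESeq2 called 0; of all genes, 777 had an unadjusted p under 0.05 and DESeq2 called 3.

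In the other mutants edgeR called no pathway gene. In Dnmt3a2-/- cortex 128 were tested, 11 with an unadjusted p under 0.05, and DESeq2 called 1. Log2 differences there were 0.4 ± 0.17 for Cpt2, 0.01 ± 0.18 for Ppara, 0.09 ± 0.09 for Pdk2 and 0.29 ± 0.1 for Slc2a1. In Dnmt3a1_delta_N cortex 128 were tested, 9 with an unadjusted p under 0.05, and DESeq2 called 0. Cpt2 differed by -0.05 ± 0.1, Ppara by 0.17 ± 0.15, Pdk2 by 0.09 ± 0.08 and Slc2a1 by 0.04 ± 0.12 on the log2 scale. With the replicate block 1 was called there, Slc2a13, with a log2 difference of -0.29 ± 0.06 (edgeR adjusted p = 0.043). Plin3 stood at 18.5, 21.8 and 20.8 CPM in Dnmt3a1_delta_N and at 19.8, 17.3 and 18.3 CPM in wild type.

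The effect of Dnmt3a1-/- in cortex was larger than that of Dnmt3a1_delta_N by 0.7 ± 0.12 on the log2 scale for Plin3 (edgeR adjusted p = 0.038, and 0.0057 with the replicate block). Of 130 pathway genes 2 were called in this test of the difference, where 0.103% of all genes were called, and 11 were called with the replicate block, which called 2.91% of all genes. The call of Plin3 was lost in 10 of the 12 fits that left out 1 library, all but those without wild type library n2 or Dnmt3a1_delta_N library 1, with adjusted p from 0.02 to 0.12 by edgeR.

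In nuclei labelled Dnmt3a1-/- the main edgeR fit called none of 124 pathway genes, 11 had an unadjusted p under 0.05, and DESeq2 called 0. Pdk2 differed by 0.49 ± 0.16, Slc2a1 by 0.19 ± 0.17 and Cpt2 by -0.39 ± 0.51 on the log2 scale, and Ppara had no value. With the replicate block 5 were called higher and 3 lower, where the block called 4.67% of all genes. Txnip (0.93 ± 0.23), Pdk2 (0.49 ± 0.13), Slc2a13 (-0.4 ± 0.1) and Lpl (-0.61 ± 0.14) were among them, with the sign of their call in Dnmt3a1-/- cortex. Others of them were not called there. That block rests on 2 pairs of libraries. Lpl stood at 12.4 and 15.3 CPM in nuclei labelled Dnmt3a1-/-, against 20.1 and 22.2 CPM in wild type nuclei. The libraries did not overlap, as 38.5% of all genes did not in this comparison of 2 against 2.

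Over the 26 libraries, the genes whose log2 CPM followed Plin4 most closely of 14070 genes were Klf15 (Pearson r = 0.933), Igfbp3 (0.925), Lrrc8a (0.919), Sgk1 (0.907) and Adipor2 (0.901). Those closest to Angptl4 included Cirbp (0.952), Stx3 (0.925) and Hif3a (0.918). Those closest to Pdk4 were Lrrc40 (0.884), Mtx3 (0.859), Ap3m1 (0.835), Smc5 (0.829) and Rpap3 (0.829). Among the members themselves the highest values were 0.85 for Plin4 with Ucp2, 0.83 for Plin4 with Angptl4 and 0.83 for Angptl4 with Slc2a4, while Plin2 and Plin4 gave -0.22. These libraries differ in tissue, preparation, series and genotype, and nuclei are low in all members, so the values describe likeness over these libraries and nothing more.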

How the data were processed

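RNA was extracted from cortex, hippocampus or NeuN-sorted nuclei and prepared with a kit for stranded mRNA libraries, per the labels' protocols. Reads were aligned to build mm9 with STAR 2.5.4a and counted with HTSeq 0.11.0, per the submitters' processing notes. Each deposited file holds 1 library as read counts per gene, not normalized by the authors. The annotation release and the strand setting are not given in the sources used here, so overlapping or antisense genes may share reads. Lines that name no gene held 21.14% to 36.97% of a library and were left out. Symbols were found for 32620 of 37310 identifiers of the cortex and nuclei files and for 55394 of 55487 of the hippocampus files, and comparisons across tissues used the 32601 shared ones. Of 75 samples, the 49 without RNA were not analysed here. Coordinates are those of RefSeq GRCm38.p6, and none was taken from the files.

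Counts were tested with edgeR 4.0.16 (R 4.3.3, limma 3.58.1) over all genes: filterByExpr, TMM scaling, a robust quasi-likelihood fit with 1 mean per group, the quasi-likelihood F-test and Benjamini-Hochberg adjustment, with a call at an adjusted p under 0.05. The SE was taken as the log2 fold change, unsigned, divided by the root of F. A gene did not overlap when every library of one group lay above every library of the other in CPM. DESeq2 1.42.0, RLE scaling, no filter, other controls, each library left out and the replicate number as a block were alternatives. On simulated counts with 200 changed genes the fits were checked first. The labels do not say which animals gave the libraries of a group, so the p-values rest on the spread between libraries, which may be technical.

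The members, the pathway lists and the marker lists were chosen with earlier results of these data known. All members were named, Dnmt3a was named as a check, up to 4 called genes per list with the smallest p were named per mutant comparison, and Cpt2, Ppara, Pdk2 and Slc2a1 were to be named whatever their values. Genes named outside this rule (Plin3, Lpl, Slc2a13 and Txnip where the main fit did not call them) were chosen after their values were seen. For likeness, the 5 genes with the highest Pearson r of log2 CPM were taken for Plin4, Angptl4 and Pdk4, at a mean of at least 1 CPM, and some genes that these rules name are counted but not reported here by name. Whether same-numbered libraries deviate together was checked with a correlation over genes, taken on differences from each group's mean. It was 0.331, 0.489 and 0.258 for Dnmt3a1-/- and wild type cortex and 0.459, 0.316 and 0.55 for Dnmt3a1_delta_N and wild type cortex. Each was over 0.1, against -0.426 to -0.005 for other numbers, so libraries with the same number were read as pairs there. This pairing comes from the values, not from the labels. The main fits, with their SE and adjusted p, ignore it, and the block was fitted only as an alternative.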

Additional observations from a re-analysis of the deposited data

Results flagged for a closer look

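The effects of Dnmt3a1-/- and Dnmt3a1_delta_N in cortex differed by a test of the difference itself for Plin3, by 0.70 on the log2 scale, with an adjusted p of 0.038 by edgeR's quasi-likelihood test. The call was lost in 10 of the 12 fits that left out 1 library, with adjusted p from 0.02 to 0.12 by edgeR. With the replicate block the adjusted p was 0.0057 by edgeR. For Plin3 all 3 Dnmt3a1-/- libraries lay above all 3 libraries of their wild type series.

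For several genes every mutant library lay on one side of the wild type mean in tissue and every mutant library on the other side in nuclei labelled Dnmt3a1-/-, and these differences were not tested. The share of all genes with such opposite sides was not counted, and in nuclei 38.5% of all genes did not overlap between the groups. Acacb was higher in Dnmt3a1-/- cortex (1.11) and hippocampus (0.63) and lower in nuclei labelled Dnmt3a1-/- (-0.42), a gap of -1.52 from cortex and -1.05 from hippocampus. Pdk4 was higher in cortex (0.37 ± 0.11) and lower in nuclei (-0.27 ± 0.39), a gap of -0.64. Cpt1a did so with 0.12 ± 0.08 and -0.42 ± 0.28, a gap of -0.54. Cpt2 gave a gap of -0.65 from cortex and -0.44 from hippocampus, and Hsd17b11 one of -0.40 from cortex. For Cpt2 the log2 differences were 0.26 ± 0.11 in cortex, 0.04 ± 0.12 in hippocampus and -0.39 ± 0.51 in nuclei. Acly was lower in both tissues and higher in nuclei, with gaps of 0.40 from cortex and 0.42 from hippocampus. Pdp1 was lower in Dnmt3a1-/- cortex (-0.30) and higher in Dnmt3a1-/- hippocampus (0.13), a gap of 0.43. The nuclei hold few counts of these members: Pdk4 had 39 in all in nuclei labelled Dnmt3a1-/- and 52 in wild type nuclei, Acacb 98 and 140, and Cpt1a 104 and 152, from 2 libraries a group.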

How the results depend on the processing

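No called value changed direction; values without a call did, such as Acacb and Cpt1a in Dnmt3a2-/- cortex when all 8 wild type libraries of cortex were used. Among values of single genes under alternatives, 1275 were counted as unchanged, 134 lost a call, 16 gained one and 21 moved by more than 1 SD between libraries. For members in the mutant comparisons, unchanged meant only a move of under 1 SD, so calls lost there are not among the 134. Leaving out 1 library ended the call of Pdk4 in Dnmt3a1-/- cortex in 4 of 6 fits. In hippocampus it ended those of Plin4 and Acacb in 4 each and that of Slc2a4 in 3. Without the filter on low counts, pathway calls numbered 1 in Dnmt3a2-/- cortex, 10 in Dnmt3a1-/- hippocampus and 4 in nuclei labelled Dnmt3a1-/-, and member calls numbered 2 in Dnmt3a2-/- cortex and 5 between the r and plain wild type series. DESeq2 called 1 pathway gene in Dnmt3a2-/- cortex, 4 in the difference between the Dnmt3a1-/- and Dnmt3a1_delta_N effects, and 2 members between wild type hippocampus and cortex; with the plain series alone as cortex, 3 members were called there. With the replicate number as a block, pathway calls numbered 1 in Dnmt3a2-/- cortex, 1 in Dnmt3a1_delta_N, 8 in nuclei labelled Dnmt3a1-/- (Lpl, at -0.61 ± 0.14, among them) and 11 in the difference of effects, and member calls numbered 2 in Dnmt3a2-/- cortex, 5 between r and plain and 0 between n and plain. The block changed no other count of pathway genes, or of members between 2 groups, by over 1.5 times. Over all genes it called 4941 in Dnmt3a1-/- cortex (2845 without it), 55 in Dnmt3a2-/- cortex (1), 0.749% of genes in Dnmt3a1_delta_N (0.0% without it), 246 in hippocampus (396), 740 in nuclei (39) and 479 in the difference between Dnmt3a1-/- and Dnmt3a1_delta_N (17). In hippocampus the block ended the call of Lpl (edgeR adjusted p = 0.1). In Dnmt3a2-/- cortex and nuclei the same numbers correlated at 0.134 and 0.408 over 2 pairs only, and in hippocampus at -0.058, 0.418 and 0.047, so no pairing was taken there, and not every hippocampus library correlated best with its own number. Leaving out 1 library at a time gave 23 to 37 pathway calls in Dnmt3a1-/- cortex (23 without wild type plain library 3), 0 to 3 in Dnmt3a2-/- cortex, 0 to 0 in Dnmt3a1_delta_N, 2 to 9 in hippocampus, 0 to 4 in nuclei (4 without mutant library 2), 0 to 0 in the difference between hippocampus and cortex and 0 to 6 in the difference between Dnmt3a1-/- and Dnmt3a1_delta_N (6 without Dnmt3a1_delta_N library 1). Member calls ran from 5 to 6 in Dnmt3a1-/- cortex, 0 to 2 in Dnmt3a2-/- cortex, 0 to 0 in Dnmt3a1_delta_N, 1 to 4 in hippocampus and 0 to 0 in nuclei. Between wild type groups they ran from 3 to 5 for r and plain (5 without plain library 3), 0 to 1 for n and plain (0 without any n library or without plain library 1 or 2), 3 to 6 for r and n, 0 to 2 for hippocampus and cortex (2 without cortex library r1) and 7 to 9 for nuclei and cortex. The cause of these shifts was not tested. With 2 libraries left, the lone sample of a group is assumed to vary like the other group. Low counts limit the comparison of Plin5 in all libraries and of Plin4, Plin2, Angptl4 and Slc2a4 in nuclei.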
